A study of Mus musculus with 6 samples.

Results

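A set of 10 genes of the liver X receptor (LXR) pathway of cholesterol export was followed in mouse bone marrow-derived macrophages, phagocytes matured in culture from marrow cells, after exposure to the antipsychotic thiothixene. The 10 members were chosen for their known roles as LXR genes, sterol transporters and apolipoproteins, with earlier results of these data in view. All 10 were found by identifier among the 56691 gene rows of each library. Of these, 8 had enough counts to be tested, and Apoc1 and Apoc2 did not. Marrow from 3 mice (a, b and c) was cultured, and on day 6 each culture was exposed for 24 h to 2 µM thiothixene or to the solvent DMSO. This gave 3 thiothixene and 3 DMSO libraries, 1 of each per mouse. The strain, sex and age of the mice and any altered allele are not given in these sources. RNA was measured by paired-end sequencing, and the libraries held 10472349 to 22297520 counts assigned to genes.

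LXRs are nuclear receptors that bind oxysterols and desmosterol, which build up when a cell is loaded with cholesterol. Together with a retinoid X receptor (RXR) partner they switch on genes that move cholesterol out of the cell, onto lipoprotein particles, and genes that limit its uptake. In macrophages that have eaten dead cells this route disposes of the swallowed cholesterol. Nr1h2 encodes LXRβ and Nr1h3 encodes LXRα. Abca1 and Abcg1 encode the membrane pumps that pass cholesterol to apolipoprotein A-I and to high-density lipoprotein. Apoe, Apoc1 and Apoc2 encode apolipoproteins of a single LXR-controlled cluster, Pltp encodes phospholipid transfer protein, Mylip encodes a ubiquitin ligase that limits lipoprotein uptake, and Smpdl3a encodes a sphingomyelinase-like phosphodiesterase that LXR induces.

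The LXR and RXR pair binds a direct repeat of the hexamer AGGTCA with 4 bases between the copies, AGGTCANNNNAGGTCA. Promoter windows, from 250 bases before to 50 after an annotated start on GRCm38.p6 (RefSeq), were held for 7 of the 10 members, and none was held for Abcg1, Apoc1 or Smpdl3a. Both strands were searched. The exact repeat was in no member's window and in 0.0152% of the 32851 windows of all genes. With up to 3 mismatches among the 12 fixed bases, the Abca1 window held a match, as did 21.9% of all windows. It lies on the strand opposite to the gene, 67 to 52 bases before the start, at chr4:53159947-53159962. It is shown because it is the only such match among these members. Capitals mark the fixed bases that equal those of the repeat, and the 250 bases before the Abca1 start (chr4:53159896-53160145, minus strand) follow with the same 16 bases in capitals as read on the gene's strand.
Abca1 element: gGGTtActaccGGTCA
Abca1 promoter: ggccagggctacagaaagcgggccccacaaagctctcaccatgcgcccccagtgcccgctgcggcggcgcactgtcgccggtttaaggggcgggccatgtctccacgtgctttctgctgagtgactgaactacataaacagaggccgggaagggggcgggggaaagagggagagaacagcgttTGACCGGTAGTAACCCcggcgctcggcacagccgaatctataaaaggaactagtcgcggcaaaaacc
The hexamer alone, on either strand, was in the Apoc2 window and in 16.3% of all windows. Windows of Nr1h2, Nr1h3, Apoe, Pltp and Mylip held neither, which says only that these letters are absent from those windows. A match describes the letters and not binding.

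Levels are given as counts per 1000000 gene counts (CPM), scaled between libraries by the TMM method. The labelled cell type was checked against 10 macrophage markers. Of these, 9 were abundant enough to be tested, and the list's summed level was 12100 to 13700 CPM with thiothixene and 11000 to 19700 CPM with DMSO. The exception was Itgam, the integrin of myeloid cells, with 1 count in all 6 libraries. Its exons share 68.7% of their bases with the annotated gene Gm49368 on the same strand. Lymphocyte markers summed to 0.641 CPM or less (Ms4a1 at 0 counts), dendritic cell markers to 1.34 CPM or less (Cd209a at 0), mast cell markers to 1.19 CPM or less and erythroid markers to 1.12 CPM or less (Hbb-bs at 0). Fibroblast markers reached 54.3 to 286 CPM with thiothixene and 94.9 to 164 CPM with DMSO (Lum at 0). Neutrophil markers were at 255 to 308 CPM with thiothixene and at 309 to 669 CPM with DMSO, the highest in mouse b. Monocyte markers were at 24.9 to 35.0 CPM with thiothixene and 36.7 to 53.5 CPM with DMSO, and none of their 4 genes passed the test. What part any of these cells have in the results was not tested, and in bulk RNA fewer cells of a type and less RNA per cell cannot be told apart.

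A set of 3 libraries stood apart. Thiothixene from mouse a, DMSO from mouse b and DMSO from mouse c received quality weights of 0.54, 0.21 and 0.23 in limma, against 2.28 to 6.23 for the other 3. Of all 6 libraries, DMSO from mouse b held the fewest gene counts, 10472349, and the largest share of ambiguous entries, 3.02%. Thiothixene from mouse a and DMSO from mouse c had the most entries not aligned, 4.98% and 4.52%, against 1.85% to 2.31% in the others. Base composition moved most in the same 3 libraries, and its cause was not tested. Among the 20% of tested genes richest in G and C (over 55.2% of the longest transcript), the median deviation from a gene's mean log2 CPM was 0.68 in the DMSO library of mouse b, -0.85 in that of mouse c and -0.39 in the thiothixene library of mouse a. Among the 20% poorest in G and C it was -0.54, 0.51 and 0.32 in the same libraries. The GC-rich median was also off 0 with thiothixene in mice b (0.24) and c (0.31) and with DMSO in mouse a (0.19). The GC-poor median there was -0.09, -0.10 and 0.01. Of the 8 tested members, Nr1h2, Apoe, Pltp and Nr1h3 (56.8% to 60.6% GC) belong to the GC-rich class. The log2 fold change of each tested member is therefore also given without these 3 libraries and with offsets that remove the trend with GC content and transcript length.

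No member passed the test of thiothixene against DMSO. In edgeR's quasi-likelihood fit over 14856 genes, 0 of the 8 tested members had an adjusted p under 0.05, and the adjusted p was 1 for each. The share of all tested genes called was 0%. At an unadjusted p under 0.05 there were 0 members, against 1.72% of all tested genes. DESeq2 and limma-voom also called 0 members. The thiothixene and DMSO libraries overlapped for all 8, whereas 6.65% of tested genes had groups that did not overlap. The fitted difference was above 0 for 3 members and below 0 for 5, with a median log2 fold change of -0.21, beside -0.04 over all tested genes.

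**Figure D1:**
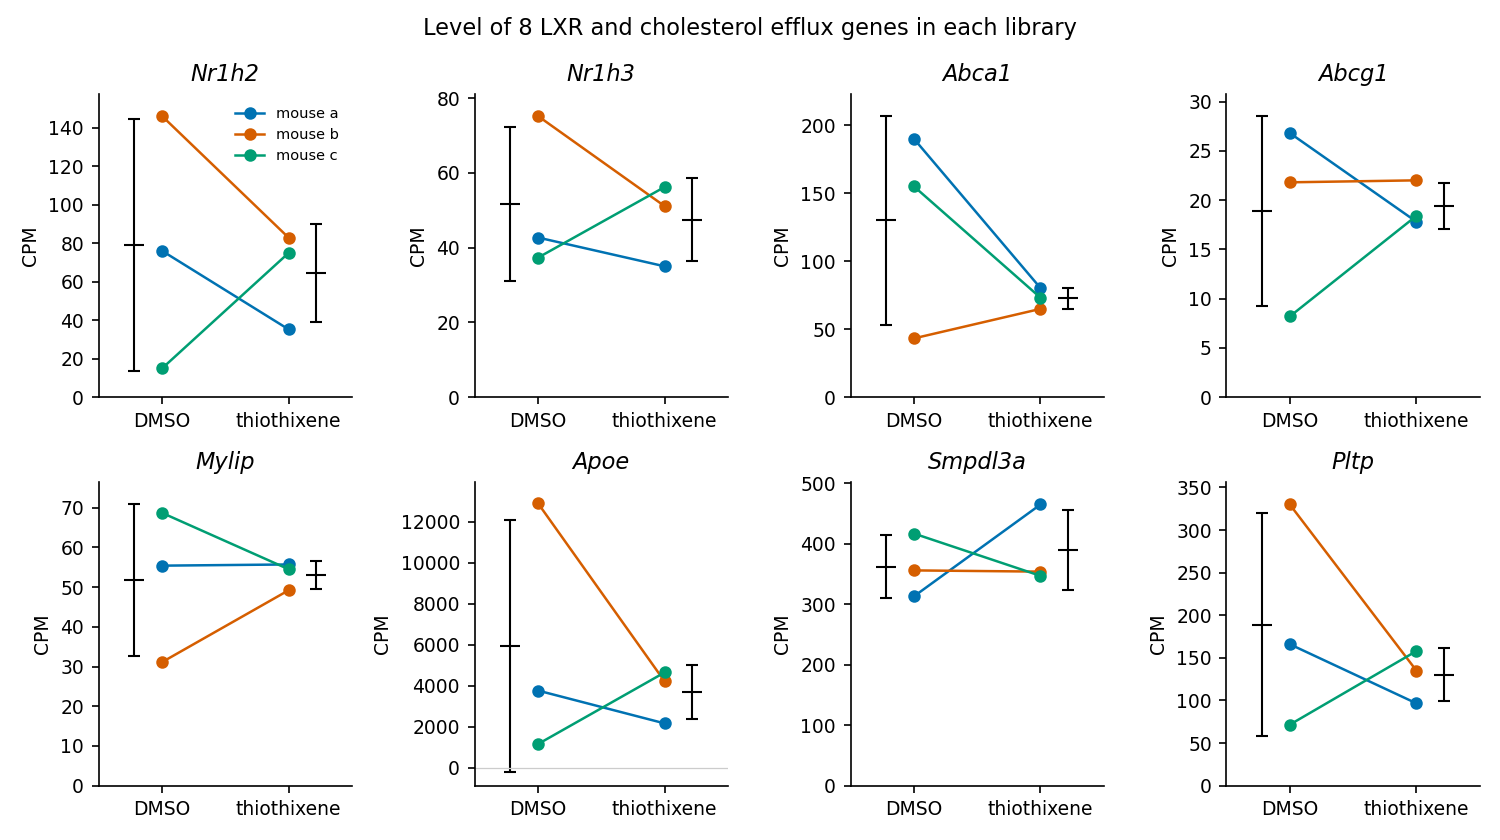
Level of each tested member in CPM (vertical axis, linear) in DMSO and thiothixene libraries, with a line joining the 2 libraries of a mouse and black bars for the mean and SD of each group (n = 3). The DMSO points lie far apart for Nr1h2, Apoe, Pltp and Abca1, and all thiothixene points of these 4 genes fall between the DMSO extremes.

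The receptors come first. Nr1h2 (ENSMUSG00000060601.14, chromosome 7, 44549616 to 44553951, minus strand of GRCm38) measured 35.2, 82.8 and 74.9 CPM with thiothixene (mice a, b and c, in this order throughout) and 76.0, 146 and 14.9 CPM with DMSO. The highest and the lowest value were both DMSO libraries, so the groups overlapped fully. The mean was 64.3 ± 25.5 CPM in the exposed and 79.0 ± 65.6 CPM in the solvent group (SD, n = 3), with a log2 fold change of -0.29 (SE 0.70, 95% interval -1.90 to 1.31). Within mice a and b the thiothixene library was lower, with log2 differences of -1.11 and -0.82, and within mouse c it was higher by 2.33. With the mouse as a block the fitted value was 0.03, on the other side of 0. It was 0.06 without the 3 libraries and -0.03 with GC and length offsets.

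Nr1h3 (ENSMUSG00000002108.11, chromosome 2, 91184061 to 91202834, minus strand) was steadier. Its level was 35.0, 51.1 and 56.2 CPM with thiothixene and 42.7, 75.2 and 37.3 CPM with DMSO. Mouse b's DMSO library was again the highest, and the other 5 lay within 35.0 to 56.2 CPM. The log2 fold change was -0.12 (SE 0.36, 95% interval -0.95 to 0.70), and without the DMSO library of mouse b it was 0.25. It was 0.34 without the 3 libraries and -0.16 with the offsets. Per kilobase of the longest transcript, LXRβ message exceeded LXRα message with DMSO in mice a (38.0 against 21.5) and b (73.1 against 37.9 CPM per kilobase). It also did so with thiothixene in mice b (41.4 against 25.7) and c (37.5 against 28.3). Both were at 17.6 with thiothixene in mouse a. The order was the opposite with DMSO in mouse c (7.47 against 18.8).

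The cholesterol pump gene Abca1 had the most negative fitted value of the members. Abca1 (ENSMUSG00000015243.5, chromosome 4, 53030787 to 53159895, minus strand) measured 80.2, 64.9 and 73.1 CPM with thiothixene and 190, 43.2 and 155 CPM with DMSO. The thiothixene libraries lay close together, below the DMSO libraries of mice a and c and above that of mouse b. Means were 72.7 ± 7.69 CPM and 130 ± 76.7 CPM (SD, n = 3), a fold of 0.561. The log2 fold change was -0.83 (SE 0.49, 95% interval -1.97 to 0.30), with an unadjusted p of 0.129 in edgeR's fit. Log2 differences were -1.24 in mouse a, 0.59 in mouse b and -1.09 in mouse c, so 2 of 3 mice were lower with the drug.

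The Abca1 value turned on a few libraries. Without the DMSO library of mouse b it was -1.25 (edgeR adjusted p 0.958, unadjusted p 0.000449), and without that of mouse a it was -0.44. With the mouse as a block it was -0.60 over all 6 libraries and -0.25 without mouse a. After removing the trend with GC content and length it was -0.91 (edgeR unadjusted p 0.01, adjusted p 0.978). Without the 3 libraries that stand apart it was -1.45. That fit sets thiothixene in mice b and c against the lone DMSO library of mouse a, so the drug and the mouse cannot be told apart. The lone library is assumed to vary like the others. The libraries left out had the lowest quality weights, which depend on spread around the group mean. Leaving them out narrows that spread by selection, so no p-value of that fit is given. The value was below 0 in all 19 alternative settings, from -1.45 to -0.25. All of them refit the same 6 libraries or a part of them, so their shared sign is not independent support. Each of the other 7 tested members turned sign in at least 1 of those settings.

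**Figure D2:**
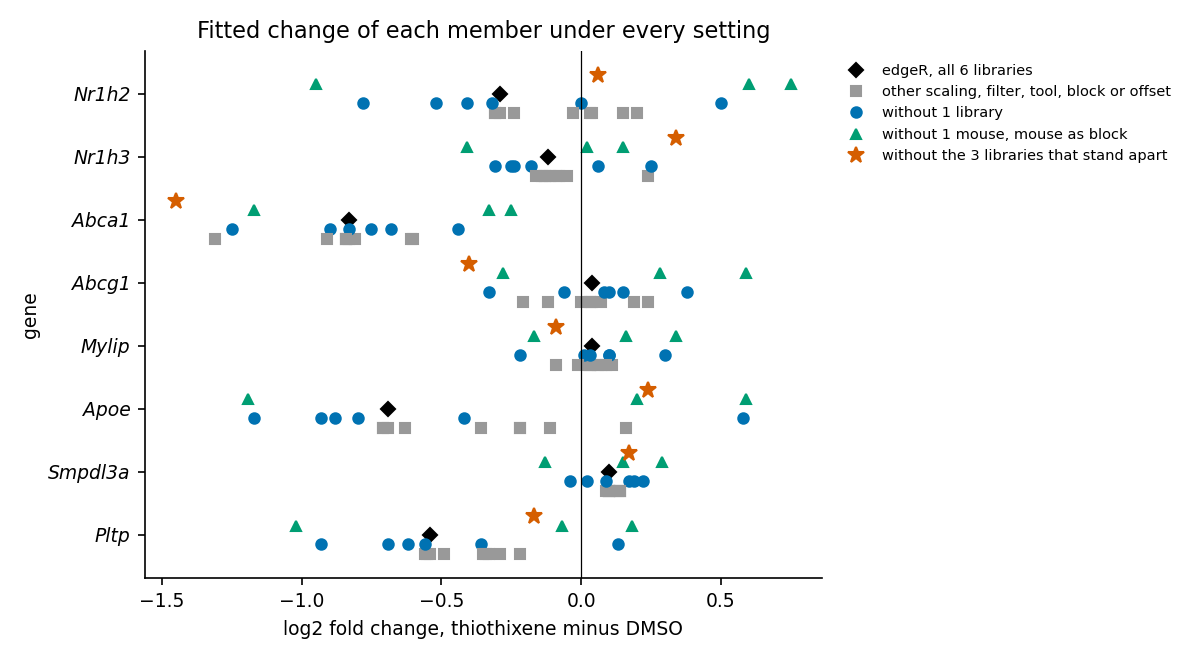
Log2 fold change of each tested member (horizontal axis) under edgeR with all 6 libraries (diamond) and under 19 other settings (other symbols as in the key). Abca1 lies below 0 in all of them, and the other 7 members have points on both sides of 0.

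The companion pump gene Abcg1 (ENSMUSG00000024030.8, chromosome 17, 31057675 to 31117988, plus strand) measured 17.8, 22.0 and 18.4 CPM with thiothixene and 26.8, 21.8 and 8.19 CPM with DMSO. The thiothixene values lay within the DMSO range, with mouse c's DMSO library the lowest. Means were 19.4 ± 2.29 and 18.9 ± 9.63 CPM (SD, n = 3), and the log2 fold change was 0.04 (SE 0.44, 95% interval -0.98 to 1.06). Its sign turned in 7 of 19 settings, with values from -0.40 (without the 3 libraries) to 0.59, and it was -0.12 with the offsets.

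Mylip (ENSMUSG00000038175.11, chromosome 13, 45389742 to 45412022, plus strand) measured 55.7, 49.2 and 54.5 CPM with thiothixene and 55.4, 31.1 and 68.7 CPM with DMSO. The thiothixene libraries lay close together and inside the DMSO range. Means were 53.1 ± 3.49 and 51.7 ± 19.1 CPM (SD, n = 3), with a log2 fold change of 0.04 (SE 0.34, 95% interval -0.74 to 0.81). It was -0.09 without the 3 libraries and -0.01 with the offsets.

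Apoe was by far the most abundant member. Apoe (ENSMUSG00000002985.17, chromosome 7, 19696109 to 19699188, minus strand) measured 2170, 4220 and 4650 CPM with thiothixene and 3770, 12900 and 1160 CPM with DMSO. Both extremes were DMSO libraries, mouse b high and mouse c low, 11.1 times apart. In the thiothixene group the highest library was 2.14 times the lowest. Means were 3680 ± 1320 and 5930 ± 6140 CPM (SD, n = 3), so the DMSO SD exceeded its mean. The log2 fold change was -0.69 (SE 0.74, 95% interval -2.40 to 1.02). Within mice a and b the log2 difference was -0.80 and -1.61, and within mouse c it was 2.00. Leaving out DMSO of mouse b gave 0.58, leaving out DMSO of mouse c gave -1.17, and without the 3 libraries that stand apart it was 0.24. With the offsets it was -0.36, and with the mouse as a block it was -0.22. The DMSO library of mouse b was also the highest in neutrophil and macrophage markers, whose part was not tested.

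The other apolipoproteins of the cluster, which spans 27610 bases with Apoe, were hardly counted. Apoc1 (ENSMUSG00000040564.15, chromosome 7, 19689481 to 19692660, minus strand) had 0, 0 and 4 counts in the thiothixene libraries and 9, 4 and 0 counts in the DMSO libraries. A count of 0 allows up to 3 counts per library (0.128 to 0.335 CPM, counting error only). The 9 and 4 counts in DMSO of mice a and b and the 4 counts in thiothixene of mouse c were above that. Apoc1 was below the filter on low counts and was not tested, and no fold is given. Apoc2 (ENSMUSG00000002992.18, chromosome 7, 19671579 to 19677941, minus strand) had 0 counts in all 6 libraries. Of its 813 exon bases, 646 (79.5%) are also exon bases of the annotated gene Gm44805 on the same strand, which had 0 counts too. Each library lists reads set aside as ambiguous between genes, 1.68% to 3.02% of all entries. Among the 149 protein-coding genes that share at least 75% of their exon bases with another on the same strand, 64.4% had 0 counts in all libraries, against 26.8% of the 20766 that share none. Whether the overlap set the count of 0 for Apoc2 was not tested.

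Pltp (ENSMUSG00000017754.14, chromosome 2, 164839518 to 164857711, minus strand) measured 96.6, 135 and 158 CPM with thiothixene and 166, 330 and 71.6 CPM with DMSO. The order of the DMSO libraries was that of Apoe, with mouse b the highest and mouse c the lowest. Means were 130 ± 31.2 and 189 ± 131 CPM (SD, n = 3), with a log2 fold change of -0.54 (SE 0.52, 95% interval -1.72 to 0.64). Its exons share 19.3% of their bases with Ctsa on the opposite strand, and since the strand setting of the count is not given, reads of the shared bases cannot be told apart. Leaving out DMSO of mouse b gave 0.13, and leaving out DMSO of mouse c gave -0.93 (edgeR adjusted p 0.776). It was -0.17 without the 3 libraries, -0.35 with the offsets (edgeR adjusted p 0.978) and -0.33 with the mouse as a block.

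Smpdl3a (ENSMUSG00000019872.14, chromosome 10, 57794335 to 57811830, plus strand) was the least variable. It measured 465, 354 and 347 CPM with thiothixene and 313, 356 and 417 CPM with DMSO. The highest library was thiothixene from mouse a and the lowest was DMSO from the same mouse. Means were 389 ± 66.1 and 362 ± 52.3 CPM (SD, n = 3), 0.10 apart on the fitted log2 scale (SE 0.28). The 95% interval, -0.53 to 0.74, was the narrowest of the members. It was 0.17 without the 3 libraries and 0.14 with the offsets.

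**Figure D3:**
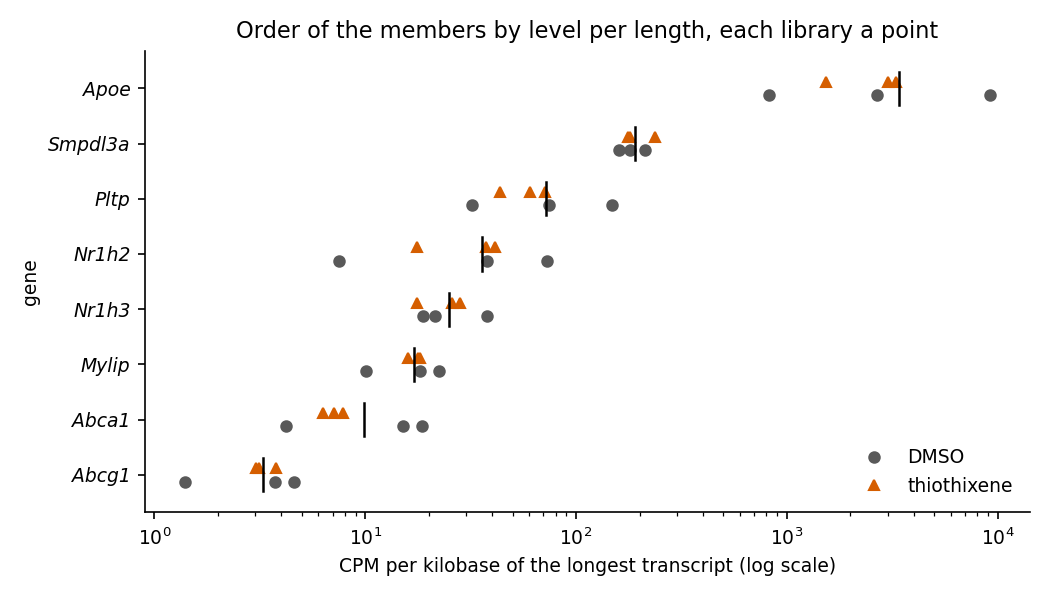
CPM per kilobase of the longest transcript (horizontal axis, log scale) for 8 members, with circles for DMSO libraries, triangles for thiothixene libraries and a bar for the mean of all 6. Apoe and Smpdl3a stand clear of the rest, and the ranges of every later pair of neighbours overlap.

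Levels can be compared between genes only per length. Over the 6 libraries Apoe led with 826 to 9140 CPM per kilobase, clear of Smpdl3a at 160 to 237, which in turn was clear of Pltp at 32.1 to 148. Then came Nr1h2 at 7.47 to 73.1, Nr1h3 at 17.6 to 37.9, Mylip at 10.1 to 22.4, Abca1 at 4.21 to 18.5 and Abcg1 at 1.40 to 4.59 CPM per kilobase. From Pltp down, the ranges of neighbours in this order overlapped across libraries. Within libraries Pltp was above Nr1h2 in all 6, and Abca1 was above Abcg1 in all 6. With the union of all exons as the length, the order of the means was unchanged for these 8 genes.

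The spread between libraries was itself uneven. For 7 of the 8 tested members the highest DMSO library stood further above the lowest than in the thiothixene group, 9.78 against 2.35 times for Nr1h2, 4.39 against 1.24 times for Abca1 and 4.61 against 1.64 times for Pltp. The exception was Smpdl3a, at 1.33 against 1.34 times. This was also so for 83.9% of 13950 genes, so the members are like the rest in this.

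**Figure D4:**
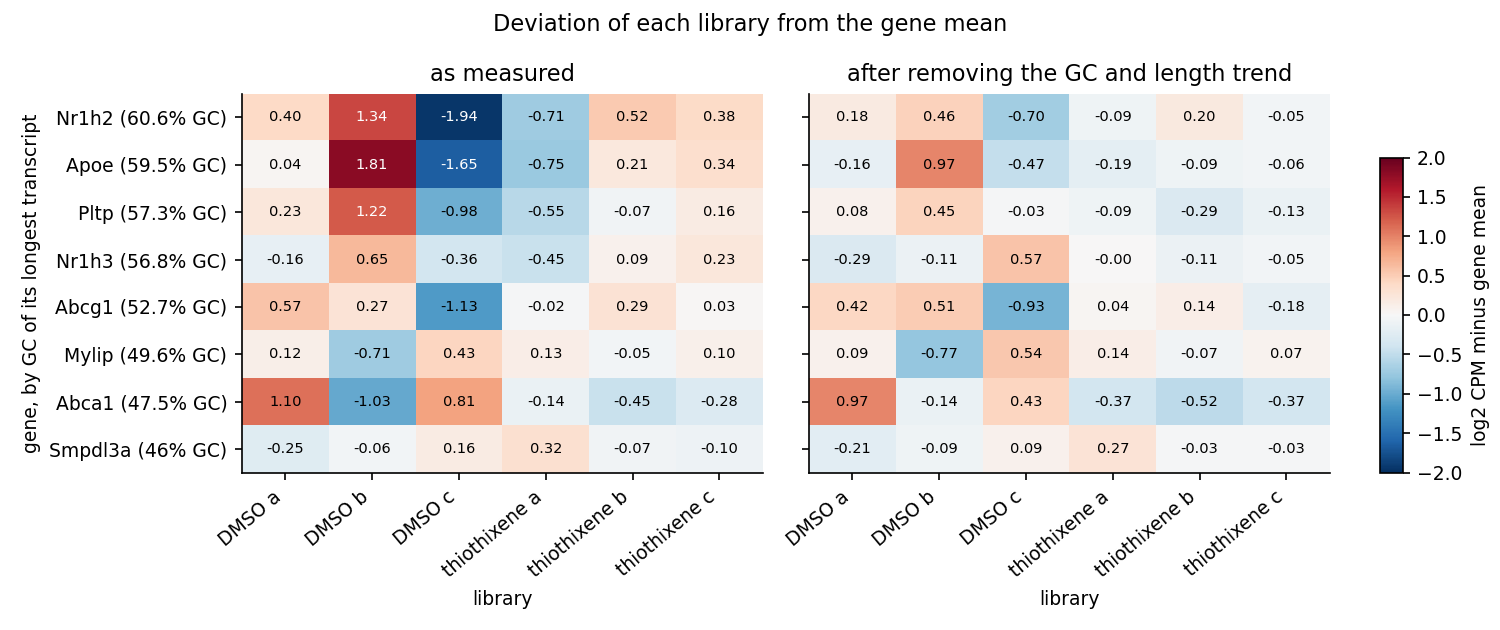
Log2 CPM minus the gene's mean over the 6 libraries (colour and printed value) for each tested member, ordered from high to low GC content, as measured on the left and after removing each library's trend with GC content and length on the right. The range of Nr1h2 over libraries was 3.28 on the left and 1.16 on the right, while that of Smpdl3a was 0.57 and 0.48.

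Across libraries, Nr1h2 and Apoe, the members richest in G and C, were the closest pair, with a root mean square difference of 0.30 between their log2 deviations, and Abca1 and Apoe the farthest, at 1.66, over 28 pairs. When each library's trend with GC content and length was removed, the range over libraries went from 3.28 to 1.16 for Nr1h2, from 3.47 to 1.43 for Apoe and from 2.20 to 0.74 for Pltp (log2). For Abca1 it went from 2.13 to 1.49 and for Mylip from 1.14 to 1.31. The Abca1 deviations then were -0.37, -0.52 and -0.37 with thiothixene and 0.97, -0.14 and 0.43 with DMSO, so the groups no longer overlapped, with the DMSO library of mouse b the nearest to the thiothixene libraries. Pltp also ceased to overlap, which made 2 of the 8 tested members, beside 10.9% of all genes corrected in the same way. That correction was chosen with these values in view, and edgeR's adjusted p with the offsets was 0.978 for both genes.

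Among 9580 tested genes with a mean of at least 10 CPM, those nearest to Abca1 over the 6 libraries were Irgm2, Sesn3 and Abca9, with root mean square differences of 0.22, 0.23 and 0.25 in log2 CPM. Their transcripts held 46.4%, 45.0% and 44.2% GC, beside 47.5% for Abca1. Those nearest to Apoe were Bcl7c, Pgls and Hspbp1, with differences of 0.09, 0.09 and 0.10. Their transcripts held 51.3%, 57.4% and 59.9% GC, beside 59.5% for Apoe. Pgls, for example, measured 38.4, 82.2 and 81.3 CPM with thiothixene and 78.2, 225 and 21.1 CPM with DMSO.

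The rest of the pathway was read from 4 lists of 51 genes, of which 43 were tested. None passed in edgeR, DESeq2 or limma-voom, and 3 had an unadjusted p under 0.05 in edgeR, Scd2 and Fasn among them. Among 12 tested RXR partners and coregulators the median log2 fold change was 0.11, with 8 above 0. The corepressor gene Ncor1 was at 0.05 (SE 0.46), and the coactivator gene Ncoa3 was at 0.20 (SE 0.35). Rxrb, picked after its values were seen, measured 5.79, 36.9 and 35.6 CPM with thiothixene and 40.9, 79.2 and 5.89 CPM with DMSO, low in the same 2 libraries as Nr1h2. When mouse c was left out and the mouse was a block, Rxrb was called at -1.93 (edgeR adjusted p 0.0138), as were 0.302% of all genes tested there. Rxrg, another partner, had 0 counts.

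Among 13 tested other LXR-regulated genes the median was 0.17, with 10 above 0. The lipase gene Lpl, the efferocytosis receptor gene Mertk and the lipid droplet gene Plin2 were at -0.11 (SE 0.29), -0.04 (SE 0.43) and 0.07 (SE 0.29). Scd2, a fatty acid desaturase gene, measured 44.5, 79.2 and 67.1 CPM with thiothixene and 39.3, 32.8 and 26.3 CPM with DMSO. Its groups did not overlap, and its log2 fold change was 0.95 (SE 0.32; edgeR unadjusted p 0.0178, adjusted p 1). Fasn, fatty acid synthase, was at 0.79 (SE 0.33; edgeR unadjusted p 0.0432, adjusted p 1). Both are also targets of SREBP factors, the sterol and fatty acid sensors, and were singled out after their values were seen.

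Of 13 genes of cholesterol uptake, storage and egress from the lysosome 8 were above 0, with a median of 0.17. Lrp1, Cd36 and Lipa, an endocytic receptor, a scavenger receptor and the lysosomal lipase, were at 0.32 (SE 0.37), 0.38 (SE 0.36) and 0.16 (SE 0.31). Among 5 tested genes of oxysterol and desmosterol metabolism the median was -0.12, with the oxysterol-forming enzyme gene Cyp27a1 at -0.57 (SE 0.45) and the sterol reductase gene Dhcr7 at 0.50 (SE 0.32).

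Over the 43 tested pathway genes the groups did not overlap for 5, all higher with thiothixene, Scd2, Fads2, Npc1 and Dhcr7 among them, which is 11.6% beside 6.65% of all genes. Without the 3 libraries that stand apart, 12 of these genes were called in edgeR, 9 higher and 3 lower. Scd2 was at 0.90 (adjusted p 0.000324), Cd36 at 0.54 (adjusted p 0.000609), Plin2 at 0.49 (adjusted p 0.00258), Mertk at -0.71 (adjusted p 8.59e-05) and Cyp27a1 at -1.15 (adjusted p 0.00134). In that fit, with the same lone DMSO library, 6.99% of all genes were called.

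**Figure D5:**
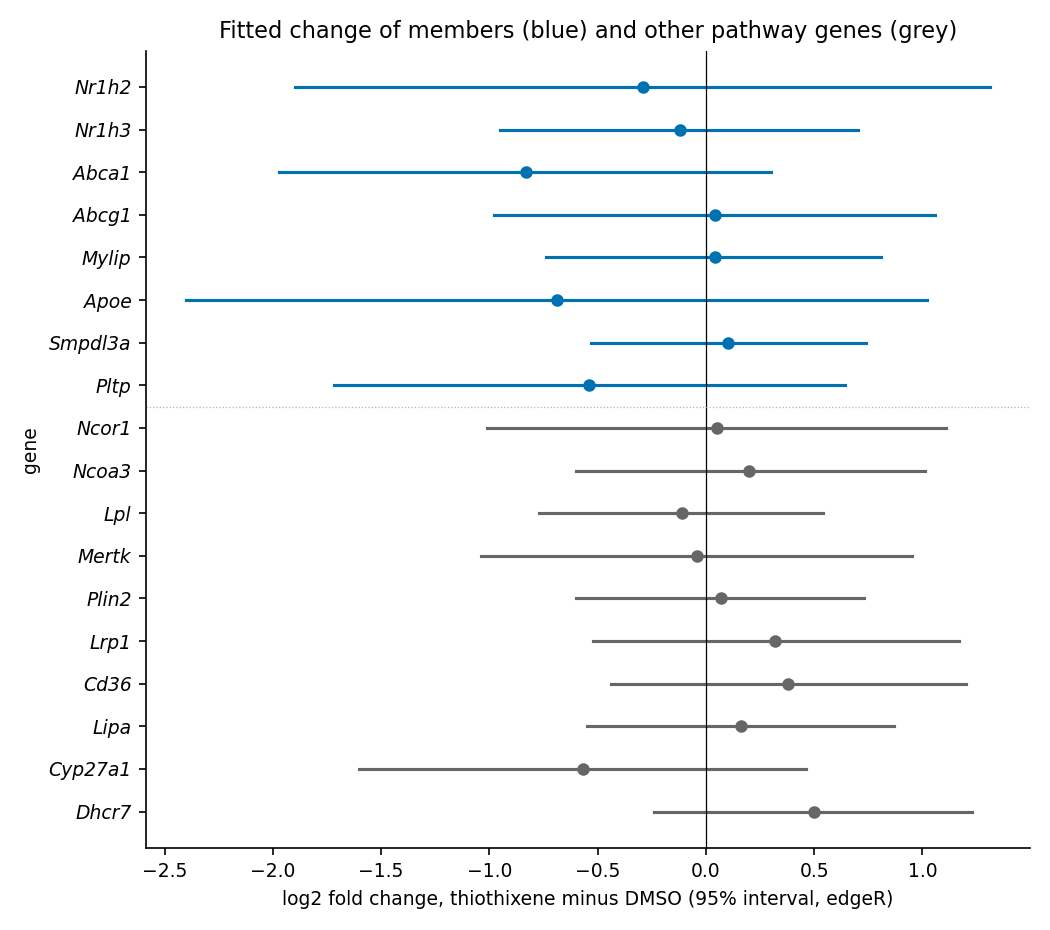
Fitted log2 fold change of thiothixene minus DMSO (horizontal axis) with its 95% interval from edgeR, for 8 members (blue) and 10 abundant genes of the other pathway lists (grey). Every interval includes 0, and that of Apoe is the widest.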

How the data were processed

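RNA was sequenced from 6 cultures, 2 per mouse. The authors deposited raw counts per gene, a table per library, with 5 closing rows that name no gene and stayed out of library sizes and tests (no gene 43.1% to 44.3% of entries, ambiguous 1.68% to 3.02%, not aligned 1.85% to 4.98%). Per the submitters' processing notes, STAR 2.7.11b, Trim Galore 0.6.10, FastQC 0.11.8, DESeq2 1.44 and mm10 were used, in roles not stated. Which program counted reads, with which strand setting and annotation, is not given in the sources used here.

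Names, positions on GRCm38, lengths and GC content came from GENCODE M21, where 52073 identifiers matched without version numbers and 4618 (0.4% of counts) did not. Counts were tested across all genes with edgeR 4.0.16 in R 4.3.3 (robust quasi-likelihood, TMM, its expression filter, treatment alone, Benjamini-Hochberg at 0.05). Log2 deviations use a prior count of 2. The SE is the size of the log2 fold change over the root of its F statistic. Alternatives used DESeq2 1.42.0, limma 3.58.1 (voom, with and without library weights), the mouse as a block, other scaling or filters, and fewer libraries. Offsets for GC content and length (splines, 5 degrees of freedom) were added after the data were seen. The edgeR fit was also run on simulated counts with planted changes. Those changes were larger than the members' fitted ones, the spread was smaller and no library stood apart. That run therefore cannot show whether changes as small as the members' would be found here.

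The members and lists were chosen with earlier results of these data known. The text names every member, of each other list the called genes or else the 3 most abundant, and the 3 genes nearest in pattern to Abca1 and to Apoe. Genes outside this rule are marked where named, and some listed genes are not reported here. Libraries of a mouse share an animal, which pairs them. The correlation between deviations of paired libraries was -0.131, 0.318 and -0.301 for mice a, b and c. Replicates within a group are different mice, per the labels. Precision is limited by 3 libraries a group and a biological coefficient of variation of 46.0%.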

Additional observations from a re-analysis of the deposited data

How the results depend on the processing

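Counts of calls moved with the library set. Over all genes 0 passed in edgeR, against 1 with no filter on low counts, 2 in DESeq2, 25 in limma-voom with library weights, 0 to 45 with a library or a mouse left out (45 without mouse c) and 1105 without the 3 libraries that stand apart, where 1 member and 12 other pathway genes passed. With a library or mouse left out, 0 to 1 pathway genes passed. The mouse as a block changed no call, and with this replicate block Nr1h2 was at 0.028 and Mertk at 0.093 (log2 fold change, as below). Nr1h3 was then at -0.087, Abcg1 at 0.19, Mylip at 0.11 and Smpdl3a at 0.10. Of 18 named genes under 19 settings, 275 values kept direction and call and 62 changed sign. The rest became calls, only in the fit without the 3 libraries that stand apart. The cause was not tested.

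Without the 3 libraries, sign changed for Nr1h2 (0.060), Nr1h3 (0.34), Abcg1 (-0.40), Mylip (-0.088), Apoe (0.24), Ncoa3 (-0.0079), Ncor1 (-0.25), Lpl (0.23) and Lrp1 (-0.12). With library weights it changed for Nr1h2 (0.15), Nr1h3 (0.24), Abcg1 (-0.21), Mylip (-0.093), Apoe (0.16), Ncor1 (-0.14) and Lpl (0.084), and in plain limma-voom for Nr1h2 (0.20) and Mertk (0.085). With GC and length offsets it changed for Abcg1 (-0.12), Mylip (-0.0063), Ncor1 (-0.028) and Lrp1 (-0.0041), and with these offsets and the replicate block for Nr1h2 (0.040) and Abcg1 (-0.0023).

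With a library or mouse left out, values ran from -0.95 to 0.75 for Nr1h2, -0.41 to 0.25 for Nr1h3, -0.33 to 0.59 for Abcg1, -0.22 to 0.34 for Mylip, -1.19 to 0.59 for Apoe, -0.13 to 0.29 for Smpdl3a and -1.02 to 0.18 for Pltp. They ran from -0.085 to 0.52 for Ncoa3, -0.34 to 0.67 for Ncor1, -0.29 to 0.088 for Lpl, -0.40 to 0.41 for Mertk, -0.081 to 0.32 for Plin2 and -0.011 to 0.50 for Lipa. Apoc1 and Apoc2 had too few counts for a test.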
